A study of Mus musculus with 14 samples.

Results

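Injured and uninjured hind limb muscle of wild-type (WT) mice were compared by RNA-seq, with 3 libraries in each group. The members were chosen by label: 6 of the 14 libraries of the series are WT muscle, 3 labelled as injured and 3 as without injury. The other 8 are 6 muscle libraries of Myf6 knockout (KO) mice, 3 per condition, and a ChIP-seq library with its control. Myf6, the gene removed in the KO mice, encodes a myogenic regulatory factor and is intact in all 6 WT libraries by label. Each WT library carries a number, 510, 511 or 512, with the letter L when uninjured and R when injured. Libraries that share a number are called pair 1, pair 2 and pair 3 here. The labels do not say what the numbers and letters stand for, which injury was made, how long after it the tissue was taken, or the strain, age and sex of the mice. Nothing states that libraries of a group came from separate animals, so the p-values measure only the spread between these libraries.

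Skeletal muscle is repaired by satellite cells, stem cells beneath the basement membrane of each fibre that express Pax7. After damage these cells typically divide, switch on Myod1 and then Myog, and fuse into new fibres that for a time make embryonic and neonatal myosins, while neutrophils, then macrophages and matrix-producing cells, enter the tissue. Fibres themselves are of slow and fast types, each with its own set of sarcomere proteins. Whether transcripts of these kinds differ between injured and uninjured WT muscle is the question the comparison addresses.

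The uninjured libraries held 31072965, 1880087 and 30357234 reads assigned to genes, and the injured libraries 13329975, 26711470 and 26129022. Uninjured library 2 is thus the shallowest: 3 reads, taken here as the floor of detection, equal 1.60 RPM (reads per 1000000 reads assigned to genes) in it and 0.0965 to 0.225 RPM in the other 5. Levels are in RPM, and changes are injured minus uninjured on the log2(RPM + 1) scale, which makes changes of weakly expressed genes look smaller than they are. The uninjured and injured libraries stand in separate deposited tables, so the injury and any difference between the tables cannot be told apart. In both tables a library is scaled by its own total only. Genes that define muscle were high in each library: the fast myosin gene Myh4 was at 40979 to 60748 RPM and desmin (Des) at 2124 to 3357 RPM in the 6 libraries, while the skin keratins Krt5, Krt14 and Krt1 had 0 reads in each.

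No gene separated injured from uninjured WT muscle once all genes were taken into account. Of 13337 genes tested with limma, 0 (0%) passed a Benjamini-Hochberg adjusted p of 0.05, and the lowest adjusted p was 1. Without adjustment 172 genes (1.29%) had p under 0.05, of which 111 (0.832%) were higher and 61 (0.457%) lower in injured muscle. On the recovered reads edgeR also called 0 genes, with 481 at an unadjusted p under 0.05, and DESeq2 called 6, with 448. The split of unadjusted calls moved with scaling: 106 higher and 109 lower with TMM scaling, 97 and 110 with upper quartile scaling, and 67 and 97 when scaled to reads outside mitochondrial genes. The median change of all genes was 0.09. The plot of change against level shows these genes with the 24 that are named by rule further on.

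**Figure D1:**
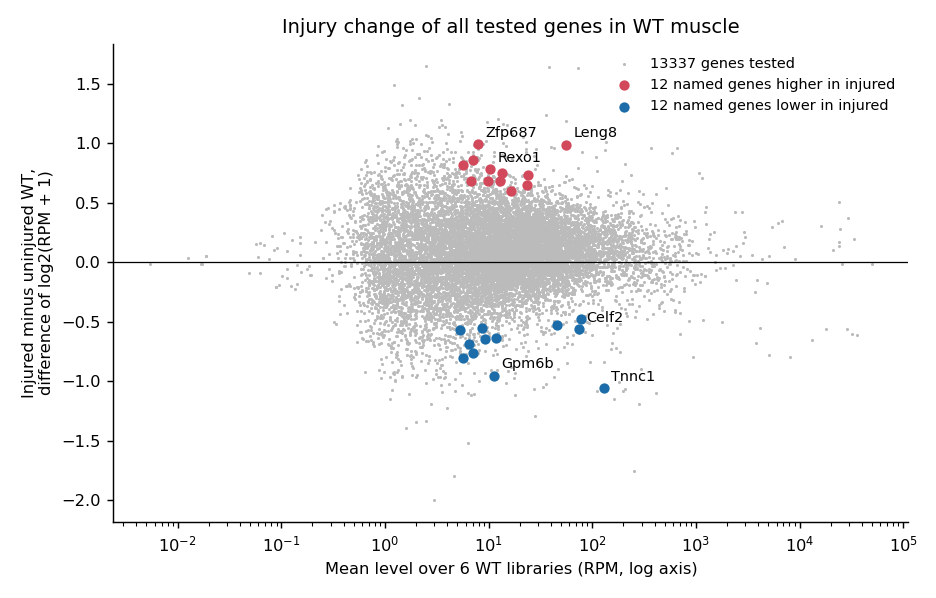
Change of each tested gene in WT muscle (injured minus uninjured, difference of log2(RPM + 1)) against its mean level over the 6 WT libraries (RPM, log axis). Grey points are the 13337 genes tested; the 24 genes named by rule are coloured, 12 higher in red and 12 lower in blue, and all of them have a limma adjusted p of 1.

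The pairs did not move alike. Among 4728 genes with a mean of at least 20 RPM, the standard deviation of the change was 0.32 in pair 1, 0.66 in pair 2 and 0.39 in pair 3. In pair 1, 15 genes were at least 2-fold higher and 17 at least 2-fold lower in the injured library. Pair 3 had 27 and 31 such genes. Pair 2, which holds the shallowest library, had 494 and 121. None of these 4728 genes was 2-fold changed in the same direction in all 3 pairs. Across these genes, which are not independent replicates, Pearson's r of the changes was 0.47 between pairs 1 and 3, -0.05 between pairs 1 and 2, and -0.48 between pairs 2 and 3. Of all genes tested, 2332 (17.5%) were higher and 1133 (8.5%) lower in the injured library of every pair. All injured libraries lay above all uninjured ones in 998 genes (7.48%) and below them in 339 (2.54%). All these counts are from RPM, where the median change of all genes was 0.09. When scaled to reads outside mitochondrial genes that median was -0.004.

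Genes that mark regeneration were examined as a check of the label. The embryonic myosin gene Myh3 was at 1.22, 1.06 and 1.52 RPM in uninjured and 1.58, 1.31 and 0.689 RPM in injured muscle. These values are low and overlap. The muscle fusion genes Mymk and Mymx and the fetal acetylcholine receptor subunit Chrng were too low to be tested, at 0 to 0.791 RPM in all 6 libraries. The neonatal myosin gene Myh8 was at 965, 646 and 1019 RPM in uninjured and 1509, 1762 and 1038 RPM in injured libraries. Its groups do not overlap, with means of 877 ± 201 and 1436 ± 368 RPM (SD, n = 3) and a log2 change of 0.71 (SE 0.39), yet pair 3 differed by only 0.03. The cardiac actin gene Actc1, also made in developing muscle, was at 413, 212 and 398 RPM in uninjured and 501, 494 and 469 RPM in injured libraries, a log2 change of 0.58 (SE 0.55). Every injured library is above every uninjured one, and uninjured library 2 is the lowest of the 6. Of the 19 genes of the regenerating fibre list 16 were tested, and 0 passed. Of these 16, 4 were higher and 1 lower in every pair, against 17.5% and 8.5% of all genes. The 4 higher ones are Myh8, Actc1, Myog and Myod1, and the last 2 also belong to the myogenic regulators described below. Groups did not overlap in 2 of 16 with injured higher and 0 with injured lower, against 7.48% and 2.54% of all genes. The median change was 0.11 against 0.09 over all genes. As a whole the list therefore does not set the libraries labelled as injured apart from the others, although 4 members were higher in every pair. Injured means here labelled as injured.

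Satellite cell genes and myogenic regulators had medians above that of all genes, which was 0.09. All 14 satellite cell genes were tested, with 0 past the adjusted threshold and a median change of 0.21. In every pair 5 were higher and 0 lower, against 17.5% and 8.5% of all genes. Megf10, which could be tested only because it was high in injured muscle, is 1 of the 5. Pax7 itself was at 2.48, 3.19 and 3.69 RPM in uninjured and 4.65, 2.70 and 4.17 RPM in injured muscle, with overlapping groups. Megf10, which encodes a receptor of satellite cells and also of phagocytic cells, was at 0.386, 0 and 0.132 RPM (12, 0 and 4 reads) in uninjured muscle and at 3.08, 1.80 and 2.03 RPM (41, 48 and 53 reads) in injured muscle. Every injured library is above every uninjured one, by a log2 change of 1.49 (SE 0.29). The gene passed the filter on low values only through the injured WT libraries, since the KO libraries held 0 to 0.941 RPM, so it could be tested only because it was high there. The floor of uninjured library 2, 1.60 RPM, comes close to the injured levels, so that library can hardly tell its own level from theirs. In KO muscle Megf10 changed by 0.40. Heyl, a Notch target gene, was at 6.44, 4.26 and 5.34 RPM in uninjured and 7.88, 8.16 and 9.34 RPM in injured muscle, without overlap, a log2 change of 0.59 (SE 0.24). Sdc4, encoding the surface proteoglycan syndecan 4, likewise did not overlap, at 21.5 to 22.9 RPM against 25.2 to 27.5 RPM. Megf10, Heyl and Sdc4 are the 3 of the 14 genes whose groups do not overlap with injured higher, against 7.48% of all genes. Since Megf10 could be tested only because it was high in injured muscle, its place in that count is not a result on the list. The same holds for its place among the 5 genes higher in every pair and for its part in the median.

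The list of myogenic regulators, transcription factors that set the muscle programme, had a median change of 0.41. Of its 10 estimates 9 were above 0, against 8317 of all 13337 genes. Of the 10, 6 were higher in every pair, against 17.5% of all genes. Myog was at 4.92, 4.26 and 2.83 RPM in uninjured and 9.53, 8.12 and 4.82 RPM in injured libraries. Each pair was higher after injury, by 0.83, 0.80 and 0.60, although the lowest injured value lies under the highest uninjured one. Myod1 was at 7.21, 13.3 and 15.9 RPM in uninjured and 11.7, 23.3 and 17.3 RPM in injured muscle, higher in each pair with overlapping groups. Mef2d, a partner of these factors, was at 53.9, 44.7 and 71.9 RPM in uninjured and 74.7, 115 and 74.8 RPM in injured muscle, without overlap. Myf6, the gene removed in the KO mice, was at 46.2, 25.0 and 111 RPM in uninjured and 47.9, 121 and 72.5 RPM in injured WT muscle, and its pairs differed in direction (0.05, 2.23 and -0.61). Without pair 2 the median of the list was 0.17, and without injured library 2 it was 0.23. The plot of regeneration, immune, matrix and stress genes shows how little most of them separate the groups.

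**Figure D2:**
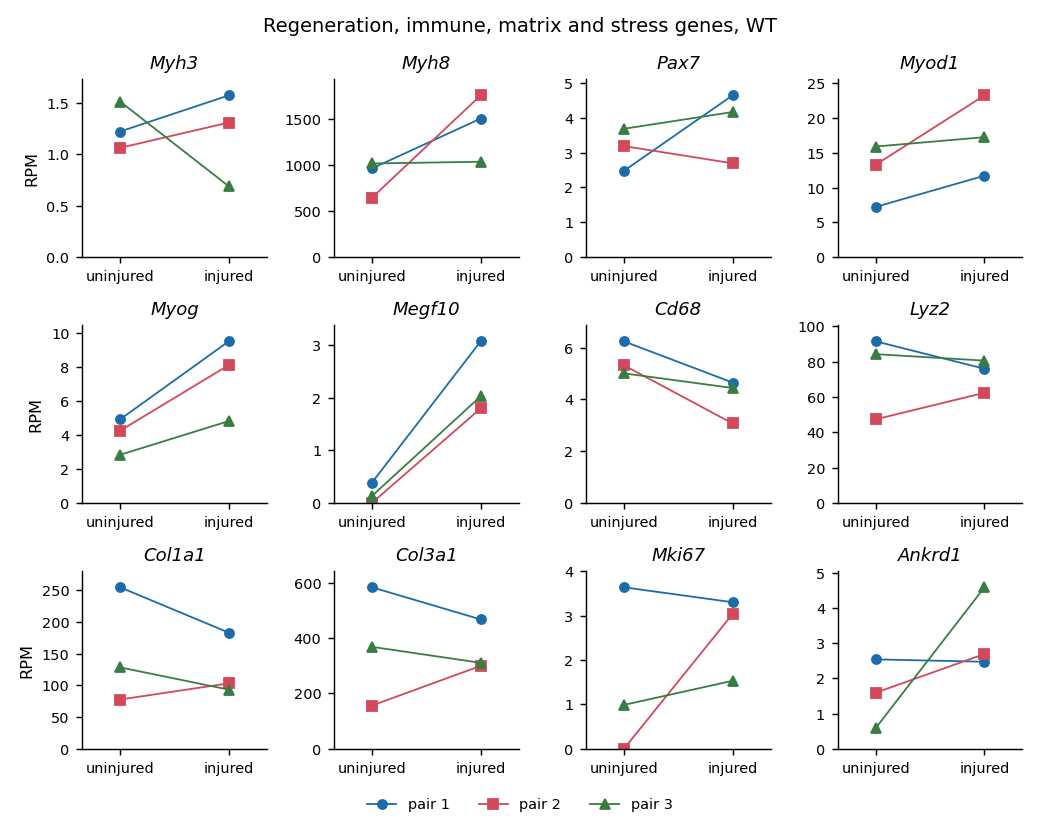
Levels (RPM, linear axes from 0) of 12 genes of regeneration, satellite cells, immune cells, matrix, cell division and stress in uninjured and injured WT libraries; each line joins the 2 libraries that share a number (pair 1 blue circles, pair 2 red squares, pair 3 green triangles). Myog and Megf10 are higher in the injured library of each pair and Cd68 is lower in each, while Myh3, Col1a1 and Lyz2 differ in direction between pairs.

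Neutrophil genes were near the floor of detection, and macrophage genes had a median change near 0. The neutrophil list had 1 of 10 genes at a level that could be tested, and Ly6g, a defining neutrophil gene, had 0 reads in all 6 libraries, which allows up to 0.0965 to 1.60 RPM. The macrophage list had a median change of -0.01, whose sign changed in 5 of 22 alternative settings. In every pair 1 of its 18 genes was higher and 4 were lower, against 17.5% and 8.5% of all genes. Cd68, a lysosomal protein of macrophages, was at 6.24, 5.32 and 5.01 RPM in uninjured and 4.65, 3.07 and 4.44 RPM in injured muscle, with every injured library lower. Lyz2 was at 91.5, 47.3 and 84.3 RPM against 76.0, 62.4 and 80.6 RPM. The summed macrophage list ranged from 169 to 319 RPM in uninjured and from 195 to 278 RPM in injured libraries. Of 21 damage cytokines and macrophage activation genes only 7 could be tested, with a median of -0.10. Il1b was at 0, 0 and 0.527 RPM in uninjured and 0.075, 0 and 0.191 RPM in injured muscle. Spp1, encoding osteopontin, was at 9.82, 9.57 and 19 RPM against 10.9, 3.89 and 11.6 RPM. Hmox1, encoding heme oxygenase 1, did not overlap, at 8.24, 7.98 and 7.91 RPM in uninjured and 9.08, 12.2 and 10.9 RPM in injured muscle, a log2 change of 0.37 (SE 0.29). In bulk tissue, fewer cells of a type and less RNA per cell cannot be told apart.

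Lymphocyte genes were low throughout, and 5 of 11 reached the level needed for a test. Which of them did depended on the libraries where they are high, so the direction of these 5 is not a result on the list. Cd79b, part of the B cell receptor, was at 2.93, 2.13 and 3.10 RPM in uninjured and 2.33, 0.674 and 0.880 RPM in injured muscle, where the groups overlap. Cd3d, part of the T cell receptor complex, was at 0.515, 1.60 and 1.38 RPM in uninjured and 0.375, 0 and 0 RPM in injured muscle, and did not overlap, although the value of uninjured library 2 equals its floor. The summed level of the list was 13.3, 5.85 and 27.9 RPM in uninjured and 8.33, 1.72 and 3.25 RPM in injured libraries.

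Matrix, cell division and early-response genes had medians near that of all genes, and their pair medians fell on both sides of 0. The extracellular matrix list of 25 genes had 4 higher and 3 lower in every pair, against 17.5% and 8.5% of all genes. It had 0 without overlap in either direction, against 7.48% higher and 2.54% lower of all genes. Its median was 0.12, and its sign changed in 5 of 22 alternative settings. Col1a1, the main fibrillar collagen chain, was at 255, 77.7 and 128 RPM in uninjured and 183, 103 and 93.3 RPM in injured muscle. Col4a2, a basement membrane collagen, was higher in every pair (0.54, 0.43 and 0.40), at 104, 68.6 and 86.2 RPM in uninjured and 151, 92.6 and 114 RPM in injured muscle, with overlapping groups. The proliferation marker Mki67 was at 3.64, 0 and 0.988 RPM in uninjured and 3.30, 3.03 and 1.53 RPM in injured muscle. The 14 tested cell cycle genes had a median of -0.01 and the 16 tested immediate early genes, which respond within minutes to stimuli, one of -0.01. The pair medians of the cell cycle genes were -0.08, 0.55 and -0.28. None of the immediate early genes was higher or lower in every pair, against 17.5% and 8.5% of all genes.

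Slow-fibre genes had a median change of -0.84. All 11 tested estimates were below 0, against 5020 of all 13337 genes. Of the 11, 7 were lower in every pair, against 8.5% of all genes. The groups did not overlap in 2 of 11, against 2.54% of all genes, and 0 of 11 passed the adjusted threshold. Promoters of 3 of these genes are shown as examples, and those of the other members are not given, so they say nothing about the list. Marked in them are E-boxes, the letters CANNTG, which read the same on both strands and which the family of Myf6 and Myod1 binds. The stretches are the 250 bases before the start site in the RefSeq table of build GRCm38.p6, written 5′ to 3′ in the sense of the gene, with E-boxes in capitals. Tnnc1, encoding the troponin C of slow fibres and heart, is at chr14:31208062-31208311 on the plus strand. Tnnt1, encoding slow troponin T, is at chr7:4515976-4516225 on the minus strand. Myoz2, encoding the Z-disc protein myozenin 2 of slow fibres and heart, is at chr3:123034988-123035237 on the minus strand.
Tnnc1: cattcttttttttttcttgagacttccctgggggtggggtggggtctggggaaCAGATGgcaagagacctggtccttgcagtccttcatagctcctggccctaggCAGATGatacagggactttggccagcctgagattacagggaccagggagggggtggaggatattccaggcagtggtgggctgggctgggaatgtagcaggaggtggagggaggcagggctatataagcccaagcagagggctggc
Tnnt1: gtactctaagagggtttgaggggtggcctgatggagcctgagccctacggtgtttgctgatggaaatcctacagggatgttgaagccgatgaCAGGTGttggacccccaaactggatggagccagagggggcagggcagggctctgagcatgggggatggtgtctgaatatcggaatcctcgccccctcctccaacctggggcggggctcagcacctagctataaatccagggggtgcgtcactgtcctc
Myoz2: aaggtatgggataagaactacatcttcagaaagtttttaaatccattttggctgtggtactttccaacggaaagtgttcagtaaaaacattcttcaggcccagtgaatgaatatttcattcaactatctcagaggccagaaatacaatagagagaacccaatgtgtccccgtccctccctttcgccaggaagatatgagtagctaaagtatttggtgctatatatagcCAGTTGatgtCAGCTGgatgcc
The Tnnc1 stretch holds 2 E-boxes, which begin at -197 and -145 from the start site. That of Tnnt1 holds 1, at -158, and that of Myoz2 holds 2, at -22 and -12. Of the 32841 promoter stretches of this length that the table holds, a share of 66.2% have at least 1 E-box and 31.8% have at least 2, so such matches are common. A match describes letters and shows no binding. Whether E-boxes had a part in the slow-fibre values was not tested.

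Tnnc1 was at 155, 152 and 195 RPM in uninjured and 108, 35.8 and 128 RPM in injured muscle. Every injured library is below every uninjured one, with means of 167 ± 23.6 and 90.6 ± 48.6 RPM (SD, n = 3), and the change on the log2 scale was -1.06 (SE 0.52). Myoz2 was at 50.6, 44.1 and 78.9 RPM in uninjured and 27.7, 25.6 and 32.0 RPM in injured muscle. It is the other slow-fibre gene without overlap, and its change was similar in each pair (-0.85, -0.76 and -1.28). Tnnt1 was at 203, 218 and 264 RPM against 130, 50.4 and 215 RPM, lower in every pair, with injured library 3 within the uninjured range. Myl2, the slow regulatory myosin light chain, was at 321, 310 and 471 RPM in uninjured and 235, 85.0 and 359 RPM in injured muscle, again lower in every pair with overlapping groups. The slow myosin heavy chain Myh7 was at 134, 119 and 102 RPM in uninjured and 73.1, 34.6 and 109 RPM in injured muscle. Here pair 3 did not share the direction of the other pairs, as was also the case for Myl3, at 268, 273 and 255 RPM against 132, 56.1 and 269 RPM. Injured library 2 is the lowest of the 6 for each of the genes just named. The pair medians of the list were -0.53, -1.51 and -0.27, and without injured library 2 the median of the list was -0.31, and without pair 2 it was -0.42.

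Fast-fibre genes, which dominate these libraries, had a median of 0.20, with 13 of 15 estimates above 0, 6 of 15 higher in every pair and 3 without overlap. Of all 13337 genes, 8317 had estimates above 0, 17.5% were higher in every pair and 7.48% did not overlap. The median was 0.09 when scaled to reads outside mitochondrial genes. Myh4, the fastest myosin, was at 50202, 60748 and 40979 RPM in uninjured and 54832, 51848 and 42323 RPM in injured muscle, with a log2 change of -0.02 (SE 0.32). The calcium pump of fast fibres, Atp2a1, was at 14630, 14557 and 14361 RPM in uninjured and 18584, 19932 and 15534 RPM in injured muscle, without overlap. Mybpc2, a fast myosin-binding protein, was also without overlap, at 2418, 2351 and 2251 RPM against 3058, 3904 and 2579 RPM. The third, Tnnc2, was at only 4.47 to 7.61 RPM in uninjured and 9.30 to 19.1 RPM in injured muscle, and how reads of overlapping genes were counted is not given in the sources used here. Myh2 went in both directions, at 397, 181 and 681 RPM in uninjured and 739, 1172 and 387 RPM in injured muscle.

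**Figure D3:**
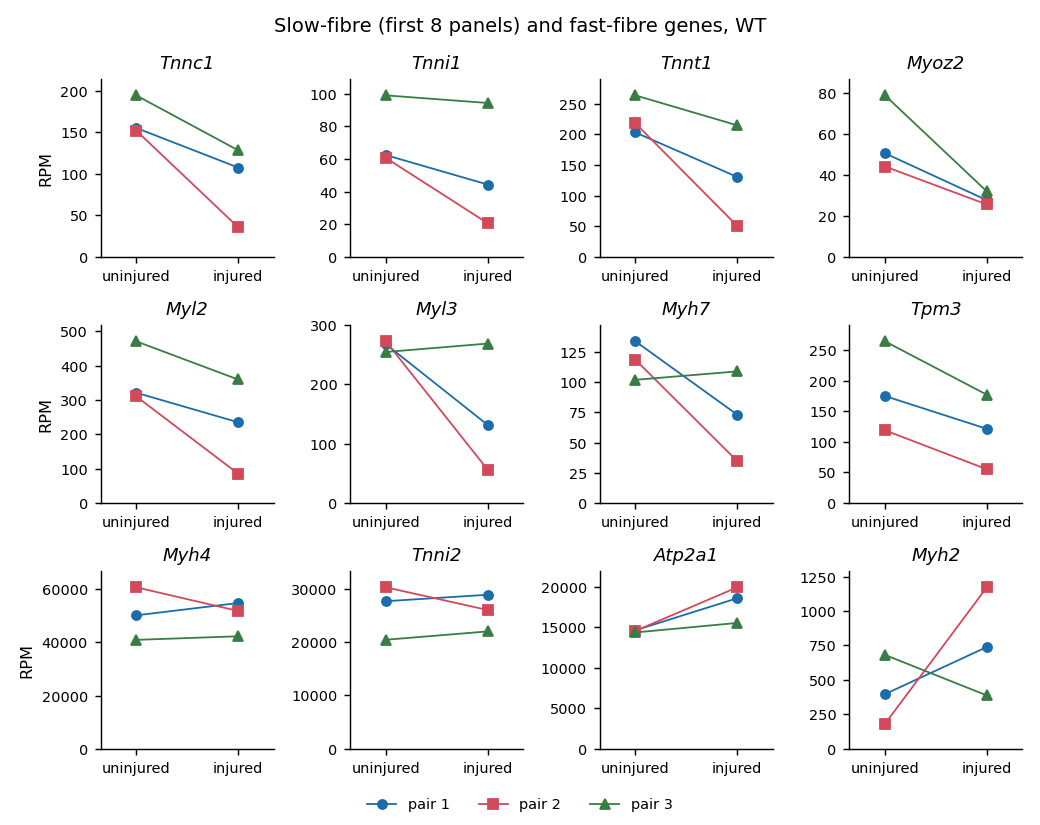
Levels (RPM, linear axes from 0) of 8 slow-fibre genes (upper rows) and 4 fast-fibre genes (bottom row) in uninjured and injured WT libraries; lines join libraries of the same number. Tnnc1 and Myoz2 are the 2 slow-fibre genes whose groups do not overlap, and pair 2 has the steepest line for most slow-fibre genes.

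The lists of Schwann cells, adipocytes and red blood cells also had medians below 0, and 0 of their genes passed the adjusted threshold. The 10 Schwann cell genes, which mark the myelinating cells of nerves, had a median of -0.71. Of the 10, 9 had estimates below 0, against 5020 of all 13337 genes. In every pair 4 were lower and 1 was higher, against 8.5% and 17.5% of all genes. The summed level of the Schwann cell list was 552, 597 and 982 RPM in uninjured and 511, 164 and 541 RPM in injured muscle. Mbp, encoding myelin basic protein, was at 108, 123 and 203 RPM against 99.5, 25.8 and 107 RPM, without overlap. The 9 adipocyte genes were all below 0 with a median of -0.79, and 6 were lower in every pair, against 8.5% of all genes. The summed level of the adipocyte list was 1654, 1255 and 2096 RPM in uninjured and 1290, 401 and 1375 RPM in injured muscle. Cfd, encoding adipsin, was at 338, 320 and 416 RPM against 272, 45.2 and 302 RPM, without overlap. All 5 tested red blood cell genes were lower in every pair, against 8.5% of all genes, with a median of -0.52. The summed level of that list was 551, 335 and 393 RPM in uninjured and 434, 167 and 324 RPM in injured muscle. The globin genes Hba-a1 and Hba-a2, and Hbb-bs and Hbb-bt, are near-identical copies whose separate levels are uncertain. No defining gene of the Schwann cell or adipocyte lists was at 0 in any of the 6 libraries. Whether these components had a part in the slow-fibre values was not tested. Without injured library 2 the medians were -0.27 for Schwann cell, -0.28 for adipocyte and -0.16 for red blood cell genes, and without pair 2 they were -0.32, -0.51 and -0.29.

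Other cell types moved less. Endothelial genes had a median of -0.06, fibro-adipogenic progenitor genes one of 0.12, and tendon genes one of -0.07, each changing sign in 2 or 3 of 22 alternative settings. Of the 13 endothelial genes, 1 was higher and 2 were lower in every pair, against 17.5% and 8.5% of all genes. Smooth muscle and pericyte genes had a median of -0.23, with 4 of 8 lower in every pair, against 8.5% of all genes. That median was -0.09 without injured library 2 and -0.39 without uninjured library 2. Cnn1, a smooth muscle contractile protein, was at 3.06, 2.13 and 2.80 RPM in uninjured and 2.1, 0.524 and 1.15 RPM in injured muscle and was the 1 of 8 genes without overlap, against 2.54% of all genes.

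**Figure D4:**
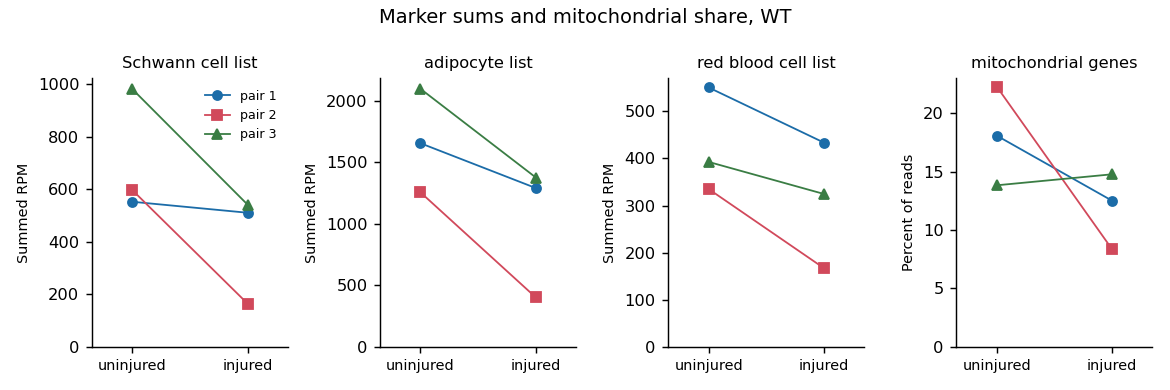
Summed RPM of the Schwann cell, adipocyte and red blood cell lists, and the percent of reads on mitochondrial genes, in uninjured and injured WT libraries; lines join libraries of the same number and axes start at 0. The 3 sums are lower in the injured library of each pair, and the mitochondrial share is lower in pairs 1 and 2 and higher in pair 3.

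Reads on mitochondrial genes made up 18.1%, 22.3% and 13.8% of the uninjured and 12.5%, 8.35% and 14.8% of the injured libraries. The means were 18.1% ± 4.22 and 11.9% ± 3.25 (SD, n = 3), a difference of -6.18 percentage points with overlapping groups and a two-sided exact permutation p of 0.2, where 0.1 is the smallest that 3 against 3 allows. All 12 tested protein genes of the mitochondrial genome had estimates below 0, against 5020 of all 13337 genes, with a median of -0.61. They share the mitochondrial part of each library's reads, so they are not 12 separate observations. Groups did not overlap in 3 of 12, against 2.54% of all genes. Cytochrome b, mt-Cytb, was at 43430, 52108 and 33992 RPM in uninjured and 32036, 20022 and 33623 RPM in injured muscle, without overlap but with a difference of only -0.02 in pair 3. The NADH dehydrogenase subunit mt-Nd5 was at 11512, 11029 and 8550 RPM against 5635, 5023 and 7276 RPM, also without overlap. The oxidase subunit mt-Co2 had 1089 RPM in uninjured library 1 and 48.7 to 121 RPM in the other 5, so its log2 change of -1.75 (SE 0.85) rests on that library. Without injured library 2 the median of the list was -0.41, and without pair 2 it was -0.29. Reads of mitochondrial genes can be shared with nuclear copies, so single values are uncertain.

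The nuclear genes of oxidative phosphorylation had a median of 0.08, with 0 of 22 higher or lower in every pair. That median turned negative with DESeq2, with edgeR, under upper quartile scaling and under scaling to reads outside mitochondrial genes. Glycolysis and glycogen genes had a median of 0.21, with 14 of 15 estimates above 0, against 8317 of all 13337 genes. In every pair 7 of 15 were higher, against 17.5% of all genes. Pygm, the glycogen phosphorylase of muscle, was at 4472, 4789 and 5258 RPM in uninjured and 5413, 7322 and 5301 RPM in injured muscle and did not overlap. The 23 fatty acid genes had a median of 0.10, whose sign changed in 3 of 22 alternative settings. In every pair 3 were higher and 3 lower, against 17.5% and 8.5% of all genes. Groups did not overlap in 2 higher and 1 lower, against 7.48% and 2.54% of all genes. Ppargc1a of this list, a coactivator of mitochondrial genes, was at 10.9, 7.98 and 14.3 RPM against 14.6, 22 and 15.6 RPM, higher in every injured library.

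Stress, signalling and secreted genes completed the lists. The 12 genes of mechanical stress, which include muscle ankyrin repeat proteins, had a median of 0.15. Ankrd2, found mainly in slow fibres, was at 80.1, 60.6 and 55.0 RPM in uninjured and 53.2, 26.1 and 42.4 RPM in injured muscle, while its relative Ankrd23 was at 5.99, 3.19 and 7.25 RPM against 10.9, 20.9 and 9.72 RPM. The groups of each gene do not overlap, and the directions are opposite. Circadian clock genes had a median of 0.21, with 6 of 17 higher in every pair, against 17.5% of all genes. Heat shock genes had a median of 0.09, which turned negative with DESeq2, with edgeR and under scaling to reads outside mitochondrial genes. Interferon response and antigen presentation genes had a median of -0.16, with 6 of 20 lower and 3 higher in every pair, against 8.5% and 17.5% of all genes. Denervation and neuromuscular junction genes had a median of 0.18, membrane repair and dystrophin complex genes 0.12, and atrophy and stress genes 0.16. In this order, the medians changed sign in 3, 1 and 2 of 22 alternative settings. Myokines, the proteins secreted by muscle that the series title names, had a median of -0.02. In every pair 0 of 20 tested were higher and 3 lower, against 17.5% and 8.5% of all genes. Vegfa, for example, was at 264, 179 and 192 RPM in uninjured and 249, 194 and 225 RPM in injured muscle. In the plot of list medians 16 of the 32 lists have pair medians on both sides of 0, 7 have all pair medians above 0 and 9 have all below.

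**Figure D5:**
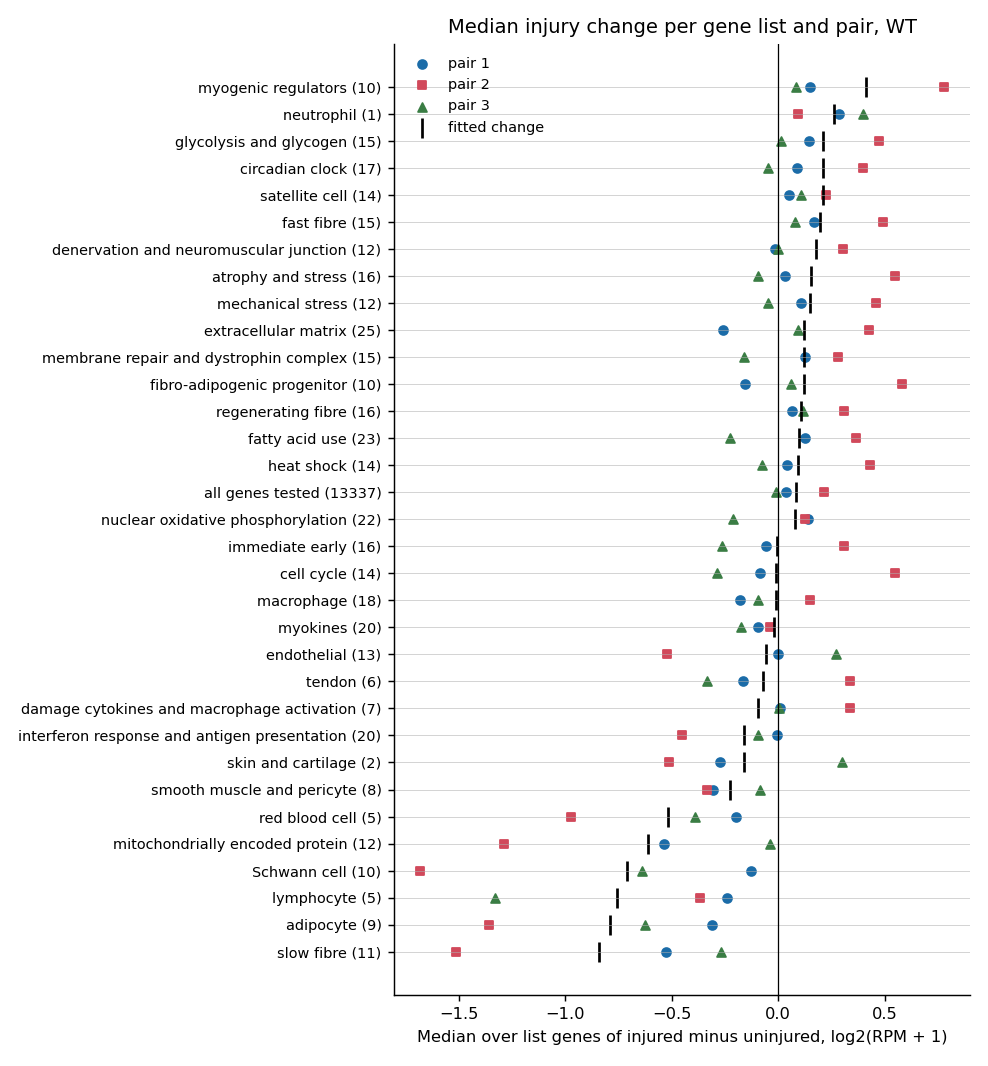
Median change of each gene list (injured minus uninjured, log2(RPM + 1)), with the number of genes tested in brackets; coloured points are the medians in pair 1, 2 and 3 and the black bar is the median of the fitted changes. Slow-fibre, adipocyte, lymphocyte, Schwann cell, mitochondrially encoded and red blood cell genes are the 6 lists with the lowest medians in the fit plotted, an order that changes with the setting, and all 3 of their pair medians are below 0. For the lymphocyte list, which genes were tested depended on the libraries where they are high, so its direction is not a result.

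The 24 genes named by rule are the 12 higher and 12 lower genes with the smallest unadjusted p among those with a mean of at least 5 RPM, the same direction in every pair and groups without overlap. Of 9242 genes at that level, 753 higher and 185 lower genes met the rule. The direction and separation of the 24 are therefore given by the choice, their unadjusted p ran from 0.00868 to 0.0692, and each limma adjusted p was 1. Rexo1, encoding an RNA exonuclease family protein, led the higher genes at 8.69, 6.91 and 6.59 RPM in uninjured and 12.5, 13.2 and 14.5 RPM in injured muscle. Its means of 7.40 ± 1.13 and 13.4 ± 1.06 RPM (SD, n = 3) give a log2 change of 0.78 (SE 0.25). Leng8 had the highest level of the 12, at 35.8, 34.0 and 41.1 RPM against 81.3, 83.6 and 60.0 RPM, a log2 change of 0.99 (SE 0.39). Zfp687, a zinc finger protein, was at 6.21, 3.19 and 5.70 RPM against 11.0, 12.2 and 9.07 RPM. Mapk8, encoding the stress kinase JNK1, was at 20.3, 13.3 and 19.7 RPM against 23.6, 29.0 and 38.3 RPM. The other 8 were Nudt16, a nudix hydrolase, the golgin Golga1, Mtg2, a GTPase of the mitochondrial ribosome, Rtl8a, Ttyh2, Zer1, a ubiquitin ligase receptor, the septin Sept9, and Naglu, a lysosomal enzyme, with log2 changes of 0.60 to 0.86.

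Among the lower genes Celf2, a regulator of splicing, came first, at 98.7, 82.4 and 85.2 RPM in uninjured and 63.9, 49.7 and 66.6 RPM in injured muscle. Its means were 88.8 ± 8.73 and 60.1 ± 9.06 RPM (SD, n = 3), with -0.56 (SE 0.21) as the log2 change. Tnnc1, described with the slow-fibre genes, had the lowest estimate of the 12. Gpm6b, a membrane protein abundant in neural and glial cells, was at 15.3, 9.57 and 20.7 RPM against 8.18, 4.38 and 9.49 RPM. Ccl6, a chemokine of myeloid cells, was at 16.8, 14.4 and 12 RPM against 9.30, 6.29 and 11.5 RPM. Reln, encoding the secreted protein reelin, was at 7.50, 7.45 and 6.82 RPM against 6.23, 2.25 and 3.48 RPM. Ddx3y, a Y-linked RNA helicase, was read in all 6 libraries, at 69.1, 39.4 and 54.4 RPM against 35.3, 34.9 and 39.2 RPM. The other 6 were the tumour suppressor Men1, Mob4, Fam111a, the zinc finger gene Zfp809, the non-coding Snhg4 and the retinol-binding protein gene Rbp7, with log2 changes of -0.76 to -0.48.

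DESeq2 was the 1 tool that called genes, and the 6 it called are given here as genes chosen after their values were seen. Pax5, the transcription factor of B cells, was at 7.69, 6.38 and 2.11 RPM (239, 12 and 64 reads) in uninjured and 1.20, 0.225 and 0.153 RPM (16, 6 and 4 reads) in injured muscle, with a DESeq2 log2 change of -3.56 (SE 0.71, adjusted p 0.00365). Abhd14b, encoding a hydrolase, was at 1.06, 0.532 and 0.494 RPM (33, 1 and 15 reads) in uninjured and 4.05, 4.46 and 4.32 RPM (54, 119 and 113 reads) in injured muscle, with a DESeq2 adjusted p of 0.0341. The filter for DESeq2, 1 RPM in at least 3 of the 6 WT libraries, would not have been met by either gene without the group where it is high. In the other group only injured library 1 for Pax5 and uninjured library 1 for Abhd14b reached 1 RPM. The value of Abhd14b in uninjured library 2 lies under the floor of that library, 1.60 RPM. Myoz2, described above, had a DESeq2 adjusted p of 0.0135. The mitochondrial tRNA mt-Tp was at 230, 254 and 183 RPM against 114, 77.2 and 110 RPM, with an adjusted p of 0.00365. Gm14148 and Gm10925, listed as pseudogenes in the GRCm38.p6 table, were higher and lower, with adjusted p of 0.0188 and 0.0135, and reads shared with parent genes make them uncertain. All 6 separated the groups without overlap, which the filter favoured for Pax5 and Abhd14b, and all had an adjusted p of 0.997 with edgeR and of 1 with limma.

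The injury change in WT was set beside that in KO muscle, whose 6 libraries enter the shared spread and the filter but not the WT change itself. A limma test of the difference between the changes gave 0 of 13337 genes (0%) at an adjusted p of 0.05, and 208 (1.56%) at an unadjusted p under 0.05. The slow-fibre median was -0.84 in WT and 0.20 in KO, where the median of all genes was 0.29, and 0 of 11 slow-fibre genes differed at an unadjusted p under 0.05. The KO pair medians of that list were 0.82, 0.01 and 0.01. Schwann cell genes had a median of -0.71 in WT and 0.58 in KO, where the pair medians were -0.97, 1.85 and 0.71. Of the 10, 1 differed at an unadjusted p under 0.05, against 1.56% of all genes. Adipocyte genes had medians of -0.79 and -0.24, with KO pair medians of 0.26, -0.64 and -0.46, and 0 of 9 differed at that threshold. The KO pairs of both these lists thus lie on both sides of 0. Of 401 list genes tested, 10 were lower in every WT pair and higher in every KO pair, and 3 were the reverse, against 1.5% and 0.735% of all genes. The 10 include the slow-fibre genes Myl2 and Tnnt1, the macrophage gene Cd14 and the pericyte gene Rgs5, and the 3 include Myh8 and Sgca.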

How the data were processed

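RNA-seq of 12 mouse muscle libraries was used, 6 of them WT. RNA was extracted with Trizol and libraries were made with the TruSeq RNA v2 kit, per the labels' protocols. HISAT2 2.1.0, SAMtools, featureCounts and DESeq2, and the builds mm10 and GRCm38.p5, are named without role or order, per the submitters' processing notes. Strand use in counting is not given in the sources used here, so antisense and overlapping genes are uncertain. The authors deposited RPM values, in 1 table for uninjured and 1 for injured libraries, each with 49585 genes. Whole reads were recovered from the RPM steps: 100% of values came out whole within 0.1 read. Floors cover counting error only, since no molecular identifiers were reported.

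The test was limma 3.58.1 (R 4.3.3), with lmFit and a trended eBayes on log2(RPM + 1). A gene was kept if 3 or more of the 12 libraries reached 1 RPM. The libraries were fitted together as 4 groups to share 1 estimate of the spread. P-values are two-sided, adjusted over all 13337 genes by the Benjamini-Hochberg method, with a threshold of 0.05. The difference between WT and KO injury changes is the interaction in that fit. edgeR 4.0.16 and DESeq2 1.42.0 were run on the recovered reads of the 6 WT libraries, for genes that reached 1 RPM in 3 or more of these 6. Other alternatives were the 6 WT libraries alone, a replicate block, other scalings, filters and pseudocounts, and leaving out libraries. The fit was tested on simulated data. No 2 WT libraries were alike enough to be repeats of 1 library (lowest mean chi-square per gene 14.8 over 15 pairs).

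Named genes follow the rule given in the report, leaving out symbols that begin with Gm and a number or end in Rik, and members of 32 gene lists (452 genes, 401 tested) are given without a limma p unless also named by the rule or called by DESeq2. The comparison, lists and rules were chosen with earlier results of these data known. Promoter stretches came from a RefSeq table of GRCm38.p6, which matched 10 of 11 slow-fibre genes. The peak list was not used. Results of some list genes are not reported here.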

Additional observations from a re-analysis of the deposited data

How the results depend on the processing

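In the WT injury comparison 0 genes passed an adjusted p of 0.05 in each of 22 alternative settings except DESeq2, which called 6. The number at an unadjusted p under 0.05, 172 as reported, was 408 with the 6 WT libraries alone, 448 with DESeq2, 481 with edgeR, 1116 without a filter on low values and 67 with at least 5 RPM in 3 libraries. Leaving out 1 library gave 87 (without injured library 2) to 303 (without uninjured library 1), with 108 without injured library 3. It was 110 without both libraries of number 512. For pairing, the deviations from the group mean of 2 libraries with 1 number correlated at 0.28, -0.23 and 0.02. Those of libraries with unlike numbers correlated at -0.40 to 0.31. With 3 libraries per group these values cannot decide whether the numbers mark true pairs, and the labels do not say what else such libraries share. The replicate block gave 0 adjusted calls in each fit, and 319 unadjusted ones with all 12 libraries, 428 with the 6 WT libraries and 387 with edgeR, and the interaction had 0 and 280. The 24 named genes, whose direction the choice fixes, passed in 0 of 528 refits, with a lowest adjusted p of 0.106. Of the 32 list medians 14 kept their sign in every alternative run and 18 did not. The median of the lymphocyte genes tested was -0.76 over 5 genes. With edgeR it was -1.75 over only 3 genes, on a scale other than log2(RPM + 1), so the 2 values are not alike. The slow-fibre median was not the lowest of the lists in some settings. With DESeq2 the slow-fibre median was -0.80, and that of the 3 lymphocyte genes tested there was -1.69. The neutrophil, lymphocyte and skin and cartilage lists had no gene left in 1 or 2 settings, which gave no value. The mitochondrial difference was -8.30 to -4.08 percentage points when 1 library was left out. The shallow uninjured library 2 limits every gene under 1.60 RPM.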
